A study of Mus musculus with 6 samples.

Results

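The genes described here encode the muscle ankyrin-repeat proteins Ankrd1 (also called CARP), Ankrd2 and Ankrd23 (DARP), and the LIM-domain proteins Csrp3 (muscle LIM protein) and Lmcd1 (dyxin). Members were all probe sets whose single gene symbol in the platform annotation was one of these 5 names. The rule found 5 probe sets for 4 of the 5 genes, among 20380 probe sets with 1 symbol that name 12393 genes. Ankrd1 had 2 probe sets and Ankrd2, Csrp3 and Lmcd1 had 1 each, and Ankrd23 was not analysed here, since its symbol stands on no probe set. All 5 passed the filter on dim signals. The genes were picked with their difference between the muscles and their spread among tibialis anterior arrays already known, so both are given below as descriptions without a test.

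Transcript levels had been measured in superficial masseter, a jaw-closing muscle, and in tibialis anterior, a limb muscle, of normal adult female C57Bl/6 mice aged 6 months. Each muscle was represented by 3 samples, numbered 1 to 3, with 1 short-oligonucleotide array each. Neither muscle was labelled as treated, stretched or injured, and it is not stated whether a muscle's 3 samples are 3 mice, or whether a number marks 1 mouse. P-values therefore set a difference against how much differences between same-numbered samples vary, and part of that may be technical. The spread used for each probe set is drawn toward that of probe sets of like intensity. Among the arrays, masseter 1 stood apart by its signal of salivary gland genes, and tibialis anterior 3 by Ankrd2 and Csrp3 themselves, so values are also given without each.

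Skeletal muscle senses load partly at the spring-like I-band region of titin and at the Z-disc, where thin filaments are anchored. The ankyrin-repeat proteins bind titin's N2A segment together with the protease calpain 3 and can also enter the nucleus, where they act on transcription, and their transcripts are known to increase when muscle is stretched or injured. Csrp3 sits at the Z-disc and on actin, moves between cytoplasm and nucleus, and is required for normal heart muscle structure in mice. Lmcd1 represses the transcription factor GATA6 and has been linked to calcineurin signalling. In limb muscle, Ankrd2 and Csrp3 are known as genes more active in slow than in fast fibres, and Ankrd1 is known chiefly from the heart.

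The sequences that precede the 4 measured genes are shown because Ankrd1 had the largest difference of the members between the muscles and all 4 were highest in the same array. Ankrd1 was highest there by only a little. They are RefSeq sequences of build GRCm38.p6, 5′ to 3′ on the gene's strand, ending just before the start of the gene. All 5 genes had an entry in the table of promoters, and the entries printed lie at chr19:36119845-36120094 (minus strand) for Ankrd1, chr19:42035777-42035916 (plus strand) for Ankrd2, chr7:48848052-48848301 (minus strand) for Csrp3 and chr6:112273508-112273757 (plus strand) for Lmcd1. Each window was 250 bases before a transcript start, and of the Ankrd2 window the 140 bases that lie outside the annotated gene are printed. Capitals mark every match, on either strand, to the MCAT element CATTCC (bound by TEAD factors), the GATA element AGATAA, the E-box CANNTG (bound by MyoD-type factors) and the CArG box (bound by SRF), and no matches of these motifs overlap in the sequences printed.
Ankrd1: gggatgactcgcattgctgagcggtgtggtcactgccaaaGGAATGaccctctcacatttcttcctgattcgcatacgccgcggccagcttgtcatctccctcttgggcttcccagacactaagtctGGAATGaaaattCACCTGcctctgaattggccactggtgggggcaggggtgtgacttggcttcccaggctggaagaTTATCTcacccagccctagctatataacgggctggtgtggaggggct
Ankrd2: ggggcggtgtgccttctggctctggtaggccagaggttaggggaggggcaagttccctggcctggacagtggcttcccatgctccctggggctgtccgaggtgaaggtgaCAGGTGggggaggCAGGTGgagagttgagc
Csrp3: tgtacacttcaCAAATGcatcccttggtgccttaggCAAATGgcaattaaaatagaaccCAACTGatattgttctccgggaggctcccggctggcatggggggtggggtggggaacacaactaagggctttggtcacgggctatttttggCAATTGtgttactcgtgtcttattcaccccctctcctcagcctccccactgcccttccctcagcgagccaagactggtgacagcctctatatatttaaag
Lmcd1: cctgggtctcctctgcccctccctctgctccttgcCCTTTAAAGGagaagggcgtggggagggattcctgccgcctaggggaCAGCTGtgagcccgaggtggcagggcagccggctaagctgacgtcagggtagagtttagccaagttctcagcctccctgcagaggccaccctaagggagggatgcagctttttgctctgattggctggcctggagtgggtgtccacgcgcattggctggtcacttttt

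The Ankrd1 window held 2 MCAT matches, which begin 210 and 123 bases before the start, 1 GATA match and 1 E-box. Of 32851 promoter windows of the same length, 12.6% held an MCAT match and 1.02% held 2 or more. A GATA match was found in 9.99% of windows, an E-box in 66.2% (2 or more in 31.8%) and a CArG match in 1.47%. The printed Csrp3 window held 4 E-boxes, and the full Ankrd2 window held 3, of which 2 lie in the printed stretch. A window at a further transcript start of Csrp3, not printed, also held E-boxes. The Lmcd1 window held 1 CArG match and 1 E-box. These matches describe letters and do not show that a factor binds there.

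Ankrd1 was read far above the filter level in tibialis anterior and near or below it in masseter. The brighter probe set, 1420992_at, had signals of 30.2, 17.2 and 34.7 in masseter 1, 2 and 3 and of 549, 399 and 612 in tibialis anterior 1, 2 and 3. The other, 1420991_at, had 5.5, 15.8 and 3 in the masseter samples and 391, 266 and 393 in the tibialis anterior samples. With both probe sets the muscles did not overlap, and the mean of the masseter lay under the filter level of 28.6, the level that a probe set's mean over the arrays had to reach. Against that level, taken for each masseter array that fell below it, Ankrd1 was at least 16.5-fold lower in masseter by the brighter probe set and at least 12.03-fold lower by the other. In whole muscle, fewer cells of a type and less RNA per cell cannot be told apart.

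The fitted log2 differences, masseter minus tibialis anterior, were -4.29 ± 0.20 (SE, n = 3 per muscle) and -5.75 ± 0.53 for the Ankrd1 probe sets. They rest on masseter signals too dim to set a ratio, and when 16 was added to every signal they were -3.63 and -3.94. Within tibialis anterior the log2 signals of Ankrd1 spanned 0.62 with the brighter probe set and 0.57 with the other, above the median span of 0.47 over all 13576 probe sets kept and wider than in 65.2% and 60.2% of them. Within masseter the spans were 1.01 and 2.40, at signals near or below the filter level.

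**Figure D1:**
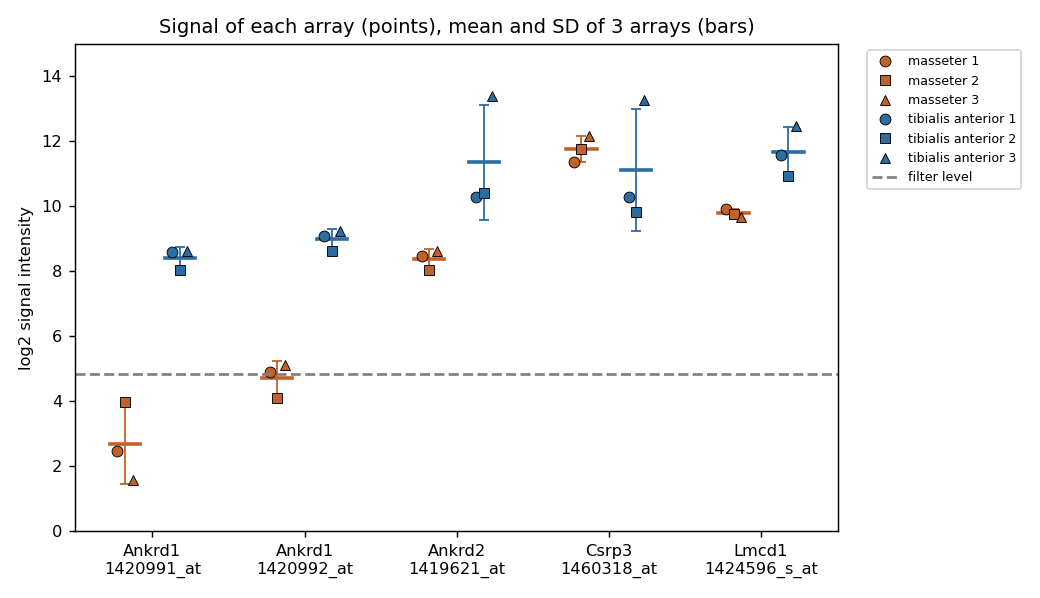
Log2 signal intensity (vertical axis) of each member probe set (horizontal axis) in each array, with masseter in orange, tibialis anterior in blue and one marker shape per sample number. Horizontal bars are means and error bars the SD of 3 arrays, the dashed line is the filter level of 4.84, and tibialis anterior 3 lies apart for Ankrd2 and Csrp3 at 13.39 and 13.27.

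Ankrd2 was read clearly in both muscles and was higher in all tibialis anterior samples. Its signals (probe set 1419621_at) were 357, 263 and 396 in masseter 1, 2 and 3. They were 1242, 1350 and 10770 in tibialis anterior 1, 2 and 3. The muscles did not overlap, and tibialis anterior 3 was 7.98-fold above the higher of the other two tibialis anterior samples. The fitted difference was -2.97 ± 0.47 (SE, n = 3 per muscle), a 7.86-fold lower signal in masseter, and the differences within numbered pairs 1, 2 and 3 were -1.80, -2.36 and -4.77. Without tibialis anterior 3, with the sample number dropped from the model, the difference was -1.96, with tibialis anterior 1 and 2 on average 3.88-fold above the masseter mean.

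Csrp3 did not separate the muscles. Its signals (probe set 1460318_at) were 2662, 3502 and 4650 in masseter 1, 2 and 3, beside 1261, 900.4 and 9886 in tibialis anterior 1, 2 and 3. The masseter samples therefore lay between tibialis anterior 1 and 2, which were lower than all of them, and tibialis anterior 3, which was higher than all of them. The fitted difference of 0.65 ± 0.46 (SE, n = 3 per muscle) was smaller than the SD of 1.57 over the 3 pairs. Without tibialis anterior 3 it was 1.72, a 3.30-fold higher signal in masseter, and without tibialis anterior 2 it was -0.01, so the sign of the Csrp3 difference rests on single samples.

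Lmcd1 was higher in all tibialis anterior samples and varied less. Its signals (probe set 1424596_s_at) were 964, 880 and 813 in masseter 1, 2 and 3. They were 3066, 1948 and 5727 in tibialis anterior 1, 2 and 3. The muscles did not overlap, and tibialis anterior 3 was again the highest sample, 1.87-fold above the next. The fitted difference was -1.88 ± 0.27 (SE, n = 3 per muscle), a 3.67-fold lower signal in masseter, with -1.67, -1.15 and -2.82 in pairs 1, 2 and 3. Without tibialis anterior 3 it was -1.47.

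**Figure D2:**
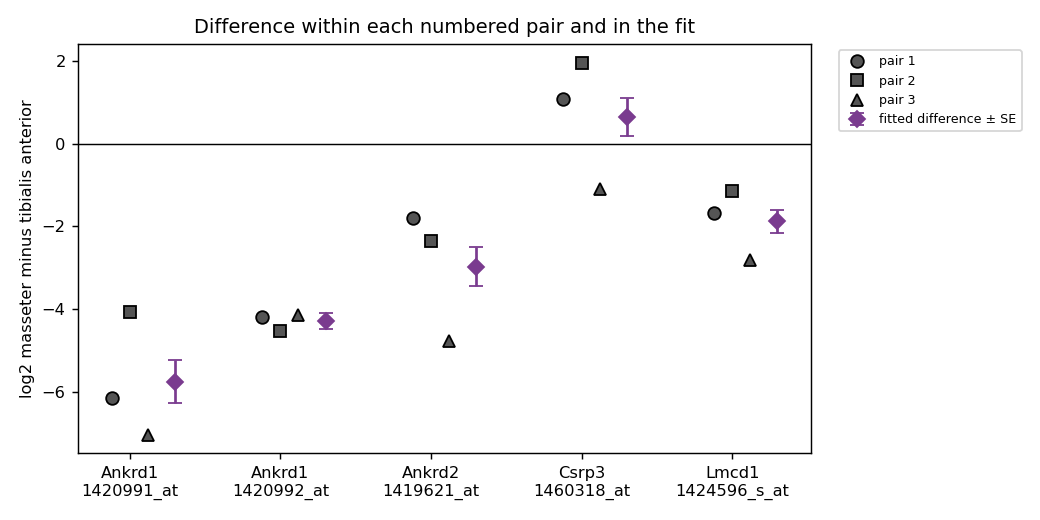
Log2 difference, masseter minus tibialis anterior (vertical axis), of each member probe set within numbered pairs 1, 2 and 3 (grey circle, square and triangle) and the fitted difference with its SE (purple diamond). Pair 3 gives the most negative value for Ankrd2 (-4.77), Csrp3 (-1.09) and Lmcd1 (-2.82), and of Csrp3 the other pairs are positive.

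The SE of the fit borrows the spread of probe sets of like intensity. The SD of the pair differences themselves was 1.58 for Ankrd2, 1.57 for Csrp3, 0.85 for Lmcd1, and 0.22 and 1.52 for the brighter and the dimmer Ankrd1 probe set. In the fit across all 13576 probe sets (limma, Benjamini-Hochberg adjusted p under 0.05), 4 of the 5 member probe sets were called lower in masseter and 0 higher, where 1.18% of all probe sets were called in either direction and 0.619% lower. The same 4 had all masseter arrays below all tibialis anterior arrays, which held for 8.63% of all probe sets, and 9.21% had the opposite order. Since the members were picked on this contrast, nothing is read from either count. In other fits the number called lower ran from 1, with eBayes without an intensity trend, to 4, and Csrp3 was called higher in masseter when pair 3 or tibialis anterior 3 was left out.

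Ankrd2 and Csrp3 were the 2 probe sets by which tibialis anterior 3 stood farthest above its group. Measured as the log2 signal of tibialis anterior 3 minus the higher of the other 2 samples, Ankrd2 stood at 3.00 and Csrp3 at 2.97, and of the 13576 probe sets 0 exceeded Ankrd2 and 1, Ankrd2 itself, exceeded Csrp3. Lmcd1 stood at 0.90, exceeded by 93 probe sets. The Ankrd1 probe sets stood at 0.16 and 0.01. In the same order, the log2 range among tibialis anterior samples of Ankrd2, Csrp3 and Lmcd1 was 3.12, 3.46 and 1.56, wider than in 99.6%, 99.8% and 95.9% of probe sets. Their ranges in masseter were 0.59, 0.80 and 0.25, with 60.3%, 75.8% and 18.6% of probe sets narrower.

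Over all probe sets, tibialis anterior 3 lay 2-fold or more above both other tibialis anterior arrays for 59 probe sets, or 0.435% of those kept, and the same count for the other 5 arrays ran from 38 to 233. The scaled signal of all 6 arrays had the same trimmed mean of 150.1, and medians ran from 44.1 to 50.7. The ratio of 3' to 5' signal of the Gapdh control, a measure of RNA length, was 2.07 in tibialis anterior 3, 1.87 and 1.88 in tibialis anterior 1 and 2, and from 2.46 to 2.92 in masseter. This ratio was thus higher in all masseter arrays than in all tibialis anterior arrays, while that of the Actb control overlapped, at 2.71 to 3.34 in masseter and 2.58 to 2.79 in tibialis anterior. The part of RNA length in the members' differences was not tested.

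The samples carried the markers of skeletal muscle, all 10 of which passed the filter, and the 10 skeletal muscle markers summed to between 129215 and 158544 in masseter and between 163868 and 168522 in tibialis anterior. Much of the gap between these sums was Myh4, a myosin heavy chain and the only 1 of these markers called. Its signals were 5649, 7072 and 8100 in masseter and 20228, 17512.5 and 19398 in tibialis anterior (limma, adjusted p = 0.00265). All 10 slow-fibre markers passed the filter, and their summed signal was 19811 to 23865 in masseter and 23588 to 27141 in tibialis anterior, with the lowest tibialis anterior value in sample 3. Most of this sum was Mb, myoglobin, at 18461 to 22667 per array. Of the 10, 2 passed, both lower in masseter: the slow-type myosin light chains Myl3, with 33.6, 44.2 and 81.3 in masseter 1 to 3 against 2422, 4269 and 2557 in tibialis anterior (limma, adjusted p = 7.6e-05), and Myl2, with 31.5, 28.6 and 19.2 against 253, 696 and 304 (adjusted p = 0.00114). Myh7, the slow myosin heavy chain, had signals of 157, 107 and 53.9 in tibialis anterior 1, 2 and 3 and of 14.5 to 28.8 in masseter. Tnnt1, Tnni1, Tnnc1 and Tpm3 also had log2 differences below 0 (-0.54, -1.11, -1.045 and -0.13) and did not pass. Atp2a2 and Mb had the opposite sign (0.23 and 0.04), and Casq2 had a difference of 0.00. Tibialis anterior 3, the highest sample for Ankrd2 and Csrp3, was the lowest of its group for Myh7, Tnnt1, Tnni1, Tnnc1, Atp2a2 and Mb, lay between the others for Myl2, Myl3 and Tpm3, and was the highest for Casq2. The part of slow fibres in the members' differences was not tested. Of 8 heart markers, 6 lay under the filter level, among them Nppa, Nppb, Myh6 and Tnni3, and the list summed to 205 to 255 in masseter and 274 to 425 in tibialis anterior. These sums did not overlap, and 0 heart markers passed. Myl4 had 71.9 to 110 in masseter and 144 to 251.5 in tibialis anterior (-1.05, limma, adjusted p = 0.102), and Tnnt2 had 13 to 19.7 and 30.9 to 73.6. Nppb had instead 32.9 to 37.5 in masseter and 5.7 to 9 in tibialis anterior, and Mybpc3 a difference of 0.34.

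Markers of other tissues were also compared, and only the tendon list had its highest sum in tibialis anterior 3. The summed signal of tibialis anterior 3 lay within the range of the other 5 arrays for endothelium (937.5) and smooth muscle (2777). It was the lowest of all arrays for salivary gland (2370) and immune cells (607). For tendon it was the highest (1473, beside 1436 in tibialis anterior 1 and 827 to 1285 in masseter). Each kept tendon marker was nevertheless highest in another array. Fmod and Kera were highest in masseter 2 (839 and 116, beside 677 and 4.4 in tibialis anterior 3). Thbs4 and Comp were highest in tibialis anterior 1 (580 and 137, beside 527 and 136), and Tnmd in tibialis anterior 2 (79.1, beside 69.5). Nerve markers summed to 972 to 1092 in masseter and 597 to 729 in tibialis anterior, and adipocyte markers to 16846 to 18253 and 12337 to 14852, so both sums separated the muscles. Of the nerve markers 0 passed, and Sox10 had the opposite sign (-0.20). Most of the adipocyte sum was Lpl, at 12148 to 12809 in masseter and 8431 to 11842.5 in tibialis anterior, and only Adipoq passed (limma, adjusted p = 0.0167). Skin markers overlapped, at 216 to 295 and 171 to 254. Masseter 1 had a salivary sum of 33420, against 2370 to 4424 elsewhere, and was between the other masseter samples for Ankrd2, the lowest for Csrp3 and the highest for Lmcd1. Masseter 2 also had more Pip and Amy1 (564 and 2140) than masseter 3 (24.2 and 862.5) and tibialis anterior (at most 72.4 and 1191). Aqp5 and Dcpp1 were not raised in masseter 2 (3.3 and 1.8). Without masseter 1, and with the sample number dropped, the log2 differences were -4.39 and -5.65 for the Ankrd1 probe sets, -3.02 for Ankrd2, 0.85 for Csrp3 and -1.94 for Lmcd1. Without masseter 2 instead they were, in the same order, -3.98 and -6.41, -2.80, 0.65 and -1.87. The part of nerve, fat and tendon in the members' differences was not tested.

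**Figure D3:**
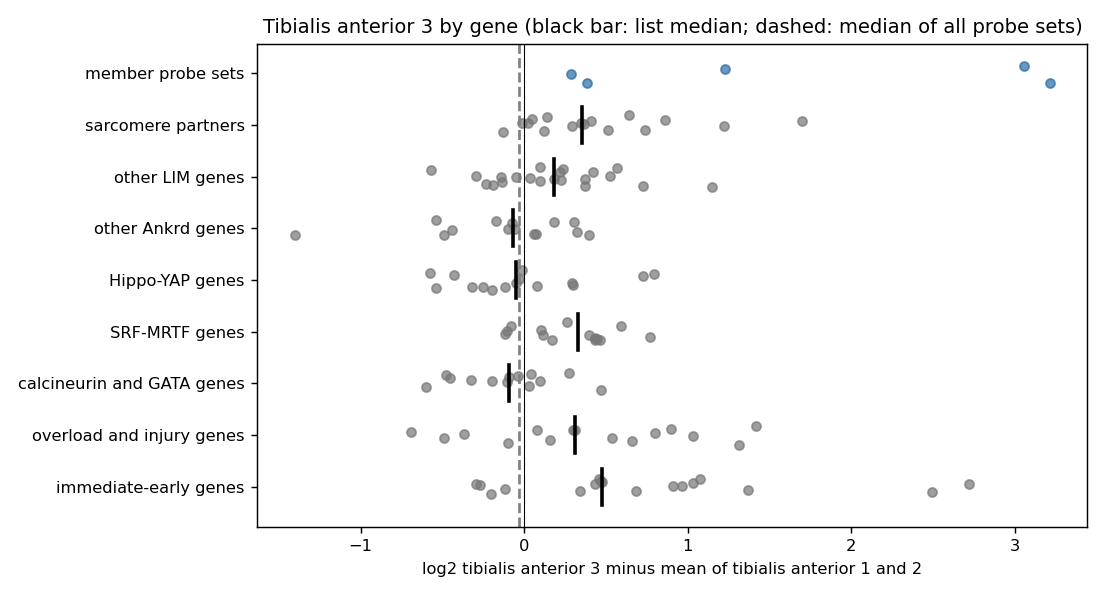
Log2 signal of tibialis anterior 3 minus the mean of tibialis anterior 1 and 2 (horizontal axis) for each member probe set (blue) and for each kept gene of 8 lists (grey), with the list's median as a black bar and the median of all probe sets, -0.03, as a dashed line. Csrp3 and Ankrd2 lie farthest right at 3.21 and 3.06, ahead of the immediate-early genes Egr1 at 2.72 and Fos at 2.49.

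Most genes that cells switch on within minutes of a stimulus also exceeded, in tibialis anterior 3, the mean of the other 2 samples. Of 17 immediate-early genes kept, 13 were above the mean of tibialis anterior 1 and 2 in that sample, with a median of 0.47, whereas 46.9% of all probe sets were above it, with a median of -0.03. Egr1, an immediate-early transcription factor, had signals of 185, 166 and 1155 in tibialis anterior 1, 2 and 3. Fos, a subunit of the AP-1 factor, had 338, 86.1 and 960. Nr4a1 and Klf4 were instead highest in tibialis anterior 1, at 1128, 759 and 805 and at 354, 132.5 and 177. Sample 3 was also the highest masseter sample for most of the 17. In masseter 1, 2 and 3, Egr1 had 114, 151 and 228 and Fos had 315, 127 and 504.5. In the comparison of the muscles 0 of the 17 passed in either direction by limma, and 5 had an unadjusted p under 0.05. The 2 with the greatest difference were Atf3, a stress-induced transcription factor (-1.12 ± 0.25, adjusted p = 0.0921), and Egr1 (-1.06 ± 0.36, adjusted p = 0.259). Fos had a difference of -0.16 ± 0.26 (adjusted p = 0.862).

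For each list a gene was taken by its brightest probe set, and of 8316 genes so tested 0.661% were called lower in masseter and 0.709% higher. Each call named below also ended with eBayes without an intensity trend. Of 16 genes of titin, its partners and the Z-disc, 1 was lower in masseter and 0 higher, with a median difference of 0.01 beside 0.02 over all probe sets. Ttn, which encodes titin, had signals of 4760, 6659 and 7132 in masseter, beside 5648, 6605 and 6056 in tibialis anterior (0.00 ± 0.13, adjusted p = 0.999). Capn3, the calpain that binds the same titin segment, had a difference of 0.14 ± 0.17 (adjusted p = 0.798), and Tcap, the titin cap protein of the Z-disc, had -0.12 ± 0.14 (adjusted p = 0.782). Ybx1, a nucleic acid-binding protein known to bind Ankrd1, had 0.05 ± 0.13 (adjusted p = 0.917). Mypn, which encodes the Ankrd1-binding protein myopalladin, was likewise not analysed here.

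The gene of this group that passed was Nrap, which encodes an anchoring protein with a LIM domain that acts in myofibril assembly. Its signals were 1301, 1644 and 1507 in masseter, beside 2768, 2486 and 3387 in tibialis anterior, a difference of -0.95 ± 0.15 (adjusted p = 0.0266). The Nrap call held in 9 of 16 alternatives, with adjusted p from 0.0124 to 0.27. It ended without pair 3 (adjusted p = 0.076), and with the sample number dropped from the model it ended without masseter 1, 2 or 3 and without tibialis anterior 1 or 3 (adjusted p = 0.073, 0.075, 0.0685, 0.0761 and 0.0868). In tibialis anterior 3, 14 of the 16 genes were above the mean of the other 2 samples, beside 46.9% of all probe sets. The list's median excess was 0.36. The 2 farthest above were Flnc, the muscle filamin, at 586, 352 and 1474 in tibialis anterior 1, 2 and 3, and Actn2, the alpha-actinin of Z-discs, at 2335, 2652 and 5807. Both were chosen after their values were seen.

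Among 21 other genes of LIM proteins, 2 were higher in masseter, 1 was lower and 18 did not pass. Fhl2, a LIM-only protein that binds titin and acts with transcription factors, had signals of 166, 238 and 223 in masseter, beside 35, 58.7 and 101 in tibialis anterior (1.80 ± 0.25, adjusted p = 0.0174). Pdlim1, a PDZ and LIM protein that binds alpha-actinin, had signals of 1087, 1102 and 922 in masseter, beside 470, 321 and 416 in tibialis anterior (1.38 ± 0.17, adjusted p = 0.00983). Pdlim3, a related protein of the Z-disc, had 1629, 1669 and 2301 in masseter, beside 3337, 2692 and 4021 in tibialis anterior (-0.84 ± 0.13, adjusted p = 0.0254). None of these groups of 3 overlapped. The list's median difference was 0.13, and 0.560% of all probe sets, or 0.709% of genes, were called higher in masseter.

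The closest relatives of Csrp3 gave no call. Csrp2, a second member of the cysteine-rich protein family, had signals of 93 to 113 in masseter and 73.4 to 86.1 in tibialis anterior (0.40 ± 0.21, adjusted p = 0.482), and Csrp1 lay under the filter level and was not tested. The Pdlim1 call held in 15 of 16 alternatives and ended with eBayes without an intensity trend (adjusted p = 0.184, over a range from 0.00609). The Fhl2 call held in 10 of 16 (adjusted p from 0.00536 to 0.179), and with the sample number dropped from the model it ended without masseter 1, 2 or 3 or tibialis anterior 1 or 2 (adjusted p = 0.0766, 0.179, 0.121, 0.0934 and 0.129). The Pdlim3 call held in 7 of 16 (adjusted p from 0.0144 to 0.27). It ended without pair 3 (adjusted p = 0.0528), with the sample number dropped and all arrays kept (adjusted p = 0.0755) and without any 1 array, where the difference ran from -1.004 to -0.702 (adjusted p = 0.188, 0.248 and 0.0643 without masseter 1, 2 and 3, and 0.202, 0.0874 and 0.224 without tibialis anterior 1, 2 and 3).

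Of 20 other genes whose symbol begins with Ankrd, 14 passed the filter, and 0 of these were called in either direction by limma, with 2 at an unadjusted p under 0.05. The shared name marks ankyrin repeats, a common protein-binding fold, and not a shared place in muscle. Ankrd10 had the greatest difference (0.89 ± 0.19, adjusted p = 0.0758), followed by Ankrd13c (-0.57 ± 0.24, adjusted p = 0.375). Their median was -0.18, and 6 of 14 were above the other tibialis anterior samples in sample 3.

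**Figure D4:**
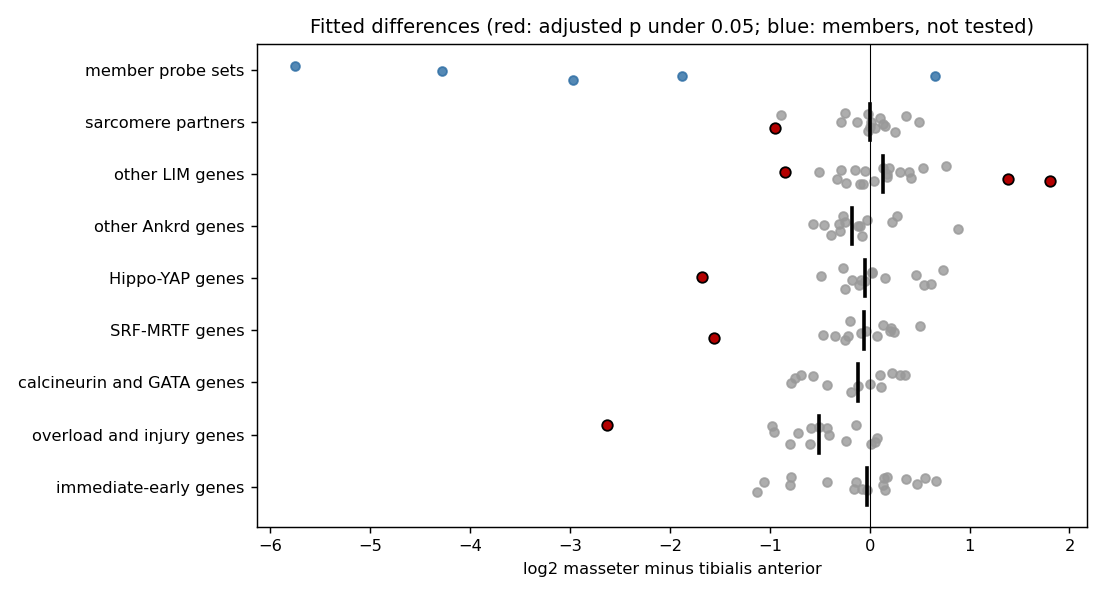
Fitted log2 difference, masseter minus tibialis anterior (horizontal axis), of the 5 member probe sets (blue, not tested) and of each kept gene of 8 lists, in red where the adjusted p was under 0.05 and grey otherwise, with the list's median as a black bar. Medians of the lists lie between -0.50 and 0.13, and Tnfrsf12a at -2.63 is the lowest of the listed genes.

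Pathways that are known to control the members gave 1 call each or none. Of 15 genes of the Hippo-YAP pathway, in which YAP and TEAD factors switch on Ankrd1 in several cell types, 1 was lower in masseter, 0 were higher and the median was -0.05. That gene was Ccn1, a secreted matrix protein and a classical YAP target, with signals of 123, 128 and 130 in masseter, beside 295, 403 and 570 in tibialis anterior (-1.68 ± 0.20, adjusted p = 0.0093). Its second kept probe set gave -2.10 ± 0.34 (adjusted p = 0.0299). Yap1 itself had -0.25 ± 0.17 (adjusted p = 0.607), the dim Tead1 had 0.55 ± 0.43 (adjusted p = 0.661), and Ccn2, a further YAP target, had -0.48 ± 0.21 (adjusted p = 0.38). The Ccn1 call held in 14 of 16 alternatives (adjusted p from 0.00305 to 0.147) and ended without masseter 2 with the sample number dropped from the model (adjusted p = 0.0531).

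Of 14 genes of SRF, the serum response factor of muscle and cytoskeletal genes, and of its targets, 1 was lower in masseter and 0 were higher, with a median of -0.06. Actc1, cardiac alpha-actin, had signals of 248, 342 and 503 in masseter, beside 992, 1130 and 978 in tibialis anterior (-1.56 ± 0.21, adjusted p = 0.0136). Srf had a difference of 0.21 ± 0.17 (adjusted p = 0.671). The Actc1 call held in 11 of 16 alternatives (adjusted p from 0.00159 to 0.2), and with the sample number dropped from the model it ended without masseter 2 or tibialis anterior 1, 2 or 3 (adjusted p = 0.0795, 0.059, 0.0691 and 0.0546). Of 13 genes of calcineurin signalling and GATA factors, with which Lmcd1 is linked, 0 passed in either direction by limma and 3 had an unadjusted p under 0.05. Rcan1, a calcineurin-induced inhibitor of calcineurin, had signals of 214 to 227 in masseter and 320 to 430 in tibialis anterior (-0.79 ± 0.17, adjusted p = 0.0886). Gata4, whose masseter mean of 25.4 lay under the filter level, had 30.2, 21.1 and 25.8 in masseter. In tibialis anterior 1, 2 and 3 it had 69.5, 32.8 and 34.3 (-0.75 ± 0.41, adjusted p = 0.502), so the difference rests mostly on tibialis anterior 1.

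Of 15 genes known to respond to overload and injury, 1 passed, lower in masseter, 0 were higher and 14 did not pass. The median difference was -0.50, and 12 of the 15 values were below 0, beside 11 of 14 for the other Ankrd genes and 47.1% of all probe sets. Tnfrsf12a, the receptor of the cytokine TWEAK, had signals of 194, 51.2 and 83.9 in masseter, beside 924, 253 and 842 in tibialis anterior (-2.63 ± 0.24, adjusted p = 0.00251). Its second kept probe set did not pass (-3.40 ± 0.69, adjusted p = 0.0699). The Tnfrsf12a call held in 10 of 16 alternatives (adjusted p from 0.000116 to 0.202). It ended with the sample number dropped and all arrays kept (adjusted p = 0.0631) and, again with it dropped, without masseter 2 or 3 or tibialis anterior 1 or 3 (adjusted p = 0.198, 0.143, 0.202 and 0.193).

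Within tibialis anterior, Tnfrsf12a was highest in sample 1, close to it in sample 3 and lowest in sample 2. Atf3 had signals of 210, 51 and 267 in tibialis anterior 1, 2 and 3, highest in 3 and lowest in 2, which is also the order of Ankrd1, Csrp3 and Lmcd1. Mustn1, a small nuclear protein of developing and regenerating muscle, had 423, 459 and 1178, in the order of Ankrd2, and was chosen after its values were seen.

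Genes most like each member were found by the Euclidean distance between log2 profiles over the 6 arrays, each centred on its mean, and are given as a description. The 5 nearest to Ankrd1 were the slow-type myosin light chain Myl3 (distance 1.49), the carbonic anhydrase Car3 (1.82), the homeobox gene Hoxa9 (1.83), the light chain Myl2 (1.96) and Hoxc4 (2.14). All 5 had every masseter sample below every tibialis anterior sample, as did 8.63% of all probe sets. Choosing profiles near that of Ankrd1 favours this order, so nothing is read from it. The 5 differed in level and spread: Car3 had signals of 469 to 903 in masseter, and Myl2 had 253, 696 and 304 in tibialis anterior 1, 2 and 3. Hoxa9 and Hoxc4 had masseter signals near or below the filter level, at 4.7 to 10.3 and 5.8 to 31. Nearest to Ankrd2 were the M-line gene Myom2 (2.07), Lmcd1 (2.14), the phosphatase gene Dusp26 (2.42), Egr1 (2.47) and a probe set of Ccn1 (2.49).

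Nearest to Csrp3 were Rasl11b (1.19), Cbs (1.30), Creb3 (1.33), Abcc5 (1.43) and Smarcd1 (1.45), with signals from 9.9 to 283. Of these, Cbs, Creb3, Abcc5 and Smarcd1 lay under the filter level in tibialis anterior 1 and 2, at 9.9 to 21.7. Their likeness to the far brighter Csrp3 thus rests partly on dim signals. Nearest to Lmcd1 were the homeobox gene Hoxc6 (0.81), the collagen gene Col1a1 (0.82), the myosin light chain gene Myl12a (0.82), Thbs4, a matrix protein of tendon and muscle (0.84), and Ccn1 (0.94). Hoxc6 lay under the filter level in masseter, at 16.2 to 22.3. The distance between Ankrd2 and Csrp3 themselves was 4.50, since they differed in masseter relative to tibialis anterior 1 and 2, and that between Ankrd1 and Csrp3, at 6.53, was the greatest among the 4 genes.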

How the data were processed

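Per the labels' protocols, RNA of each muscle sample was amplified and, carrying biotin, hybridised to 1 array. For every array the authors deposited the intensity of each probe set on a linear scale. MAS5 and GCOS appear as tools in the submitters' processing notes, without their settings. The 2% trimmed mean was alike on all arrays, so no scaling was added. The number of arrays limits the precision. Signals were floored at 1 before log2 was taken, and probe sets were kept when the mean log2 signal reached the 40th percentile of 22626 non-control probe sets (4.84), which left 13576. Names came from the platform annotation, where 20380 had 1 symbol, 691 several and 1555 none, and 0 symbols changed against a current gene table.

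The contrast of masseter minus tibialis anterior was fitted in R 4.3.3 by limma 3.58.1 (lmFit and then eBayes with trend, two-sided), with the sample number as a block because the series' design text describes paired comparisons; SAM, the method named there, was not run. P-values were adjusted by Benjamini-Hochberg over the whole filtered table and called under 0.05. Each gene in a list counted once, through the brightest of its probe sets. Genes named were the members, 16 fixed genes of their pathways, up to 3 called members of each of 8 lists (with no call, the 2 with the greatest difference) and the 5 nearest profiles of each member. The members, lists and tests were chosen with earlier results of these data known. Simulated data were used to check the fit. Alternatives were no block, no trend, quantile normalization, an offset of 16, no filter or one at the 60th percentile, the mean over a gene's probe sets, and leaving out each pair or array.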

Additional observations from a re-analysis of the deposited data

How the results depend on the processing

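In 69 of 74 recomputations the differences of the 5 member probe sets kept their sign and moved by less than 1 SD of the pair differences. Much of this count was fixed in advance, so it does not measure stability. Dropping the block or the trend or changing the filter cannot alter a difference, and leaving out 1 pair cannot move it by 1 SD. With 16 added to signals the Ankrd1 differences were -3.94 and -3.63. Leaving out pairs or single arrays, they ran from -6.59 to -5.11 and from -4.49 to -3.98 for Ankrd1, from -3.56 to -1.96 for Ankrd2, from -0.01 to 1.72 for Csrp3 (1.52 without pair 3) and from -2.25 to -1.41 for Lmcd1. The Csrp3 difference changed sign without pair 2 (-0.0051) and without tibialis anterior 2 (-0.0073). The filter at the 60th percentile removed the dimmer Ankrd1 probe set. The ranges in tibialis anterior moved by less than the SD with quantile normalization and the offset. The number of probe sets called, 160 as reported, was 13 with eBayes without an intensity trend, 138 without the replicate block and 119 to 173 with 1 pair left out; how many were the same probe sets was not counted. With the block dropped and 1 array left out, the count was 75, 45 and 73 without masseter 1, 2 and 3 and 63, 65 and 58 without tibialis anterior 1, 2 and 3. With that eBayes setting 0 genes of the sarcomere, LIM, Hippo-YAP, SRF and overload lists were called. Without the block Ankrd2 was not called, the overload list had 0 calls, and all member differences, 0.65 for Csrp3 among them, were the same in value. With the mean over probe sets 1 calcineurin or GATA gene was called. Leaving out pairs or arrays, called genes ran from 0 to 2 for sarcomere partners, 1 to 3 for LIM genes, 0 to 1 for Hippo-YAP, SRF and immediate-early genes and 0 to 3 for overload genes. The cause was not tested. Same-numbered arrays of the muscles had deviations correlated at 0.04, 0.15 and 0.10 for numbers 1, 2 and 3, and masseter 1 correlated as much with tibialis anterior 2 (0.04), so the samples share a number and are not shown to be paired. Signals near background limit the Ankrd1 ratio.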

Other observations

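The following values are of 3 genes among the 20 probe sets with the greatest excess of tibialis anterior 3 over both other tibialis anterior samples. They were chosen after their values were seen, and no gene group was tested. Dnaja4, a co-chaperone of Hsp70, had signals of 184, 238 and 786 in tibialis anterior 1, 2 and 3 with one probe set and 346.5, 373 and 1129 with the other, and between 258 and 520 in masseter. Hspb7, a small heat-shock protein of striated muscle, had 404, 412 and 1116 in tibialis anterior and 299 to 461 in masseter. A probe set of Cryab, the small heat-shock protein that protects desmin and titin, had 2865, 2919 and 7961 in tibialis anterior and 3741 to 4036 in masseter. In each of these, tibialis anterior 1 and 2 lay close together and tibialis anterior 3 exceeded all masseter samples, as it did for Ankrd2 and Csrp3.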
